A study of Mus musculus with 8 samples.

Results

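The genes described here are 40 genes of the cell cycle and of proliferation, read in the subcutaneous fat of mice given niacin-bound chromium (NBC) or a placebo. Each gene was read through the probe set that names that gene alone and has the highest mean log2(signal + 26) over all 8 arrays. A probe set is the group of short oligonucleotides on the array that reads one transcript. By this rule 39 of the 40 genes had a probe set, out of 18193 genes named alone by at least 1 probe set; Ccnb1 had none and was not analysed here. Of these 39, 37 lay at or above the filter on dim probe sets, a mean signal of about 275, and 2 lay below it: Cdc6 and Tyms. The 40 genes fall into 16 of S phase and its entry, 18 of mitosis, the 3 D-type cyclins with Cdk4, and 2 inhibitors of cyclin-dependent kinases (CDKs).

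The NBC group was 4 male mice (mice 5, 9, 11 and 13) gavaged with NBC in water at 10 mg/kg body weight, and the placebo group was 4 male mice (mice 6, 8, 10 and 14) gavaged with a matching volume of water. Both groups were gavaged 5 days a week for 10 weeks, and the labels give the mice as 8 weeks old without saying at which point of the study. The series title calls the mice diabetic, and neither the strain nor the cause of the diabetes is given in the sources used here. Total RNA of each mouse's fat went to 1 Affymetrix Mouse Genome 430 2.0 array, so n is 4 separate mice a group. The values are signal intensities on a linear scale. Signals of different probe sets were not used to compare the amounts of their transcripts. Where signals are summed over a list, the brightest probe sets weigh most.

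A cell that commits to divide makes D-type cyclins, which activate Cdk4 and Cdk6. These kinases, and then cyclin E with Cdk2, phosphorylate the retinoblastoma protein and free E2F factors, which switch on the genes of DNA replication. Later, cyclin A2, cyclin B and Cdk1 drive the cell into mitosis. Many genes of mitosis are under the control of Foxm1 and of the DREAM complex. The proteins p21 (Cdkn1a) and p27 (Cdkn1b) hold the CDKs back. Mature fat cells do not divide; in fat tissue, progenitors, macrophages, lymphocytes and endothelial cells can. Whole tissue was measured, so fewer cells of a type and less RNA per cell cannot be told apart.

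The tissue label was checked against marker genes. Adiponectin (Adipoq) read 83886 to 103846 in NBC mice and 85821 to 108996 in placebo mice, and 8 of 8 measured adipocyte markers passed the filter. Among the markers of other cells, all 10 skeletal muscle genes lay higher in NBC mice, with a median log2 difference of 3.92. Their summed signal ran from 17076 to 165711 in NBC mice and from 4585 to 22951 in placebo mice. All 12 macrophage genes also lay higher, by a median of 0.21 on the log2 scale, with summed signals of 169560 to 256840 in NBC mice and 128894 to 186430 in placebo mice. The 9 stromal progenitor genes that passed the filter lay higher by a median of 0.34. Of these 9, 4 had higher readings without overlap between the groups, against 1.7% of all genes. Their summed signals did not overlap either, at 196922 to 224061 in NBC mice and 166904 to 186272 in placebo mice. The part of progenitors in the cell cycle readings was not tested. The 9 lymphocyte genes that passed the filter had a median log2 difference of -0.63 and a median SD within groups of 1.31 on the log2 scale. Summed signals of all 10 measured were 50912 to 77418 in NBC mice and 55698 to 71154 in placebo mice. Most of each sum was Ighm, at 46986 to 62000 in NBC mice, so the sums show little of the other genes. Of the skin genes, 3 of 10 passed the filter. The ratio of 3′ to 5′ signal of Gapdh, a sign of RNA quality, was 0.844 to 1.47 in NBC mice and 0.924 to 1.04 in placebo mice. Spearman correlations between arrays were 0.941 to 0.975, and no scan batch is given in the sources used here.

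Genes of S phase and of mitosis are known for different short promoter motifs, and 5 promoters are shown for that contrast. RefSeq promoter sequences (GRCm38.p6) matched 31 of the 40 genes by symbol, and the 250 bases before the start of each gene were searched on both strands. The E2F motif was searched as TTTCCCGC, TTTCGCGC, TTTGCCGC or TTTGGCGC, the CHR motif of mitotic genes as TTTGAA, and the binding motif of the factor NF-Y as CCAAT. An E2F match was in 5 of 14 S phase promoters (35.7%), 1 of 13 mitosis promoters (7.69%) and 2.16% of the promoters of all 27025 genes. A CHR match was in 2 of 14 S phase promoters (14.3%), 6 of 13 mitosis promoters (46.2%) and 18.3% of all. CCAAT was in 10 of 14 S phase promoters (71.4%), 12 of 13 mitosis promoters (92.3%) and 37.5% of all. These are matches of letters, not measured binding. In the sequences that follow, capitals mark every match of these motifs on either strand. The first 2 are S phase genes with E2F matches, a forward and a reverse match overlapping in each, and the last 3 are mitosis genes with CHR matches, of which Cdk1 also has an E2F match.
The window of Mcm5 is chr8:75109302-75109421 on the + strand.
Mcm5: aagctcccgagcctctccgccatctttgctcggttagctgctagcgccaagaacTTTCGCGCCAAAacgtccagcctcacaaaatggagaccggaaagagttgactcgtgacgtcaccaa
The window of Mcm6 is chr1:128359721-128359840 on the - strand.
Mcm6: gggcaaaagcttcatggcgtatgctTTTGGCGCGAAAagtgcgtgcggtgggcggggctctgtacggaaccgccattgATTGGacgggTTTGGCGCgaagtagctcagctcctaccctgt
The window of Mki67 is chr7:135716424-135716543 on the - strand.
Mki67: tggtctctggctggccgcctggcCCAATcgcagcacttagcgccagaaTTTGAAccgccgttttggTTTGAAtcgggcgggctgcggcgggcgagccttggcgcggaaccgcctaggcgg
The window of Cdk1 is chr10:69352927-69353046 on the - strand.
Cdk1: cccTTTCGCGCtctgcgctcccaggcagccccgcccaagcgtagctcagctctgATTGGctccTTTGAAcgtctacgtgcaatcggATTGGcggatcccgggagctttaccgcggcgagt
The window of Cdc20 is chr4:118437344-118437463 on the - strand.
Cdc20: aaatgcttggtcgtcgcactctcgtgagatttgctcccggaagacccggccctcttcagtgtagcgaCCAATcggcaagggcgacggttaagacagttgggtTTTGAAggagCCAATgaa

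No gene of the cell cycle passed the test between NBC and placebo mice. In limma's fit over all 22519 probe sets that passed the filter, 0 of 37 genes had an adjusted p under 0.05, against 0% of all probe sets, and the smallest adjusted p among the 37 was 0.718. At an unadjusted p under 0.05, 1 of 37 genes was reached, Ccne1, which lay higher in NBC mice; of all 11662 genes, 5.44% reached it in either direction and 2.73% lay higher. The same gene was the only 1 of the 37 whose groups did not overlap, against 3.93% of all genes and 1.7% in that direction. Among the 37, the log2 difference, NBC minus placebo, was above 0 for 25 and below 0 for 12, where 48.5% of all genes lay above 0. Their median difference was 0.06, against -0.01 over all genes. Their median spread within groups, an SD of 0.36 on the log2 scale, was larger than the 0.22 of all genes.

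**Figure D1:**
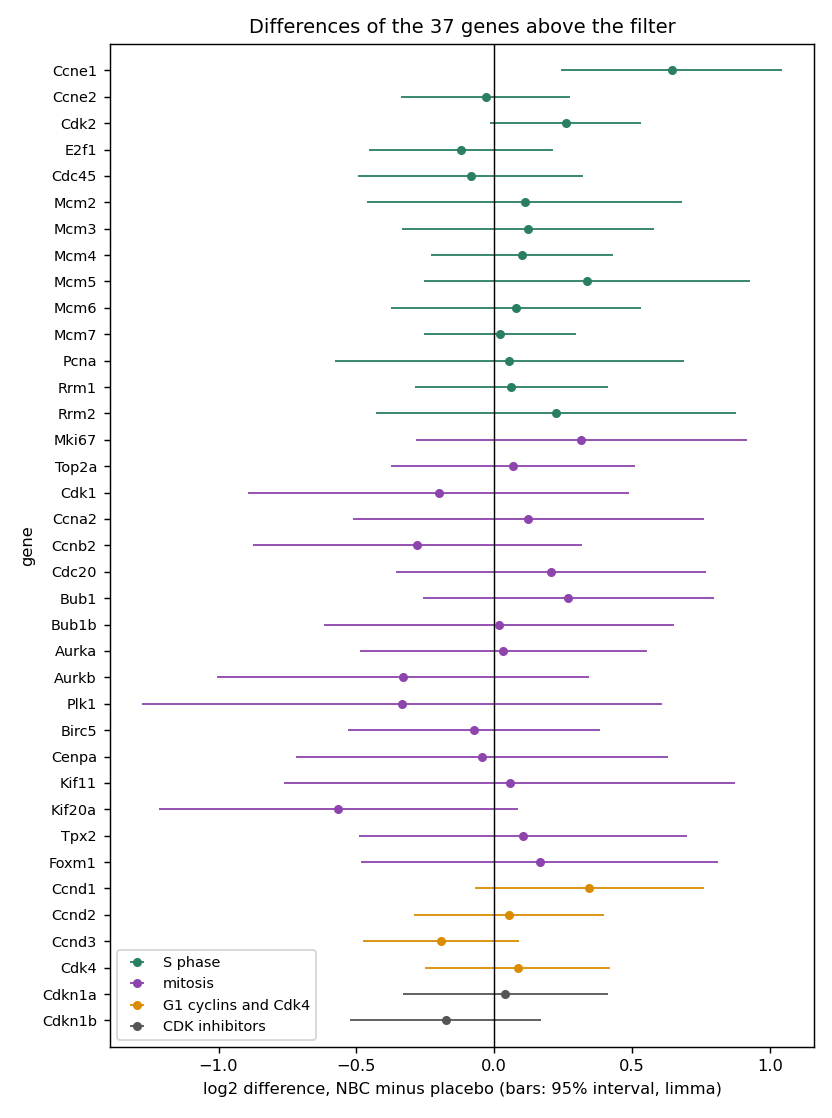
Log2 difference (NBC minus placebo, horizontal axis) of the 37 cell cycle genes that passed the filter, coloured by role, with 95% intervals from limma's fit (n = 4 mice a group). The interval of Ccne1, 0.24 to 1.05, lies wholly above 0, and that of every other gene crosses 0.

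Entry into S phase is driven by cyclin E. Ccne1, cyclin E1, read 1592, 1213, 1315 and 1277 in NBC mice 5, 9, 11 and 13, against 995, 620, 1035 and 815 in placebo mice 6, 8, 10 and 14. Every NBC mouse lay above every placebo mouse, and mouse 5 was the highest. The mean was 1349 ± 167 in NBC mice and 866 ± 190 in placebo mice (SD, n = 4 each), a ratio of 1.56. The log2 difference was 0.64 (SE 0.18, 95% interval 0.24 to 1.05), with an adjusted p of 0.718 in limma's fit. An exact two-sided permutation test over the 8 mice gave the smallest p that 4 against 4 allow, 0.0286, and 0.743 after adjustment over all probe sets. The suffix x in the name of this probe set marks probes that may also bind other transcripts, which was not tested. The probe sets used for Mcm4, Mcm5, Rrm2, Cdc20, Aurkb and Cdk4 also carry it. The other probe set of Ccne1 read 895, 827, 980 and 1087 in NBC mice and 685, 913, 1025 and 825 in placebo mice, and there the groups overlapped. Its log2 difference was 0.14 (SE 0.15, limma adjusted p = 0.889), so the 2 probe sets of the gene gave different sizes.

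Ccne2, cyclin E2, had a log2 difference of -0.03 (SE 0.14). Cdk2, the kinase that cyclin E activates, read 1566, 1972, 1854 and 1898 in NBC mice, against 1655, 1392, 1587 and 1435 in placebo mice. Of the NBC mice, 3 lay above all placebo mice, and mouse 5 lay below 2 of them. The mean was 1823 ± 178 in NBC mice and 1517 ± 125 in placebo mice, with a log2 difference of 0.26 (SE 0.12, interval -0.02 to 0.53, limma adjusted p = 0.778). Without mouse 5 the unadjusted p of Cdk2 was under 0.05, and averaging it with its second probe set, which lay under the filter, turned the difference to -0.16. E2f1, the activating E2F factor, lay between 1052 and 1286 in NBC mice and between 1032 and 1516 in placebo mice, with a log2 difference of -0.12 (SE 0.15).

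The MCM proteins form the helicase that opens DNA at replication origins. Of the 6 MCM genes, all had log2 differences above 0, from 0.02 for Mcm7 to 0.34 for Mcm5, and none passed the test. Without placebo mouse 10 those of Mcm6 and Mcm7 were -0.05 and -0.06. Other probe sets above the filter also lay below 0: 2 of Mcm7 (-0.15 and -0.11), 1 of Mcm3 (-0.05) and 1 of Mcm2 (-0.01). Mcm5, whose promoter is shown above with its E2F match, read 2739, 2616, 2541 and 3129 in NBC mice, against 2332, 2383, 1227 and 3242 in placebo mice. Placebo mouse 10 was the lowest and placebo mouse 14 the highest of all 8, so that the placebo group enclosed the NBC group. The means were 2756 ± 261 in NBC mice and 2296 ± 826 in placebo mice, and the log2 difference was 0.34 (SE 0.26, interval -0.25 to 0.93). Without placebo mouse 10 it was 0.07, and in the other probe set of the gene it was 0.00 (SE 0.23). Mcm6 read 2670, 2956, 3020 and 4125 in NBC mice, against 2712, 3266, 2265 and 3931 in placebo mice. NBC mouse 13 and placebo mouse 14 were the highest and placebo mouse 10 the lowest, and the log2 difference was 0.08 (SE 0.20). Mcm7 read 4832, 4589, 5095 and 5239 in NBC mice, against 4906, 5160, 4121 and 5341 in placebo mice. Placebo mouse 10 was again the lowest and placebo mouse 14 the highest, with a log2 difference of 0.02 (SE 0.12, interval -0.25 to 0.30). Mcm2, Mcm3 and Mcm4 had log2 differences of 0.11 (SE 0.25), 0.12 (SE 0.20) and 0.10 (SE 0.15). Cdc45, a cofactor of that helicase, had -0.08 (SE 0.18).

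Pcna, the clamp that holds DNA polymerase on its template, read 11585, 20174, 10882 and 24557 in NBC mice, against 14291, 16871, 11919 and 18646 in placebo mice. NBC mice 5 and 11 were the lowest of all 8 and NBC mice 9 and 13 the highest, so that the NBC group spread on both sides of the placebo group. The means were 16799 ± 6678 in NBC mice and 15432 ± 2946 in placebo mice, with a log2 difference of 0.06 (SE 0.28, interval -0.58 to 0.69). Rrm1 and Rrm2, the subunits of ribonucleotide reductase, which makes the building blocks of DNA, had log2 differences of 0.06 (SE 0.16) and 0.22 (SE 0.29). In the probe sets used, both were lowest in placebo mouse 10 and highest in NBC mouse 13. The other Rrm1 probe set above the filter was lowest in NBC mouse 5 and highest in NBC mouse 9, with a difference of -0.17. Those of Rrm2 were also lowest in placebo mouse 10 but highest in placebo mouse 14 (0.04) or NBC mouse 9 (-0.22). The helicase loader Cdc6 read 156 to 339 in NBC mice and 48 to 318 in placebo mice, and thymidylate synthase, Tyms, read 57 to 227 in NBC mice and 102 to 272 in placebo mice. Both were under the filter and were not tested.

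The mitosis genes spread more between mice than the S phase genes did: their median SD within groups was 0.46 on the log2 scale, against 0.26. They were also read by dimmer probe sets, with a median signal of 784 against 1718, and the part of brightness in this spread was not tested. Mki67, the gene of the proliferation antigen Ki-67, read 2748, 2892, 2804 and 3259 in NBC mice, against 2920, 2607, 1258 and 3112 in placebo mice. Apart from placebo mouse 10, all mice lay between 2607 and 3259, and the groups overlapped. The means were 2926 ± 230 in NBC mice and 2474 ± 837 in placebo mice, a ratio of 1.18, with a log2 difference of 0.32 (SE 0.27, interval -0.28 to 0.92, limma adjusted p = 0.851). Without placebo mouse 10 the difference was 0.02.

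Top2a, topoisomerase II alpha, which untangles the copied chromosomes, read 1033, 1535, 1242 and 1623 in NBC mice, against 1168, 1282, 1032 and 1702 in placebo mice. NBC mouse 5 and placebo mouse 10 were lowest together, and the log2 difference was 0.07 (SE 0.20, interval -0.37 to 0.51). The other Top2a probe set above the filter had another order. There placebo mouse 10 was the highest, followed by NBC mice 5 and 11, and the log2 difference was 0.32 (SE 0.17). Cdk1, the kinase that starts mitosis, read 1012, 1607, 950 and 2075 in NBC mice, against 1627, 1640, 973 and 2185 in placebo mice. NBC mice 5 and 11 and placebo mouse 10 lay between 950 and 1012, and the other 5 mice lay at 1607 or above. The means were 1411 ± 533 in NBC mice and 1606 ± 496 in placebo mice, with a log2 difference of -0.20 (SE 0.31, interval -0.89 to 0.49). It was -0.42 without placebo mouse 10 and -0.04 without placebo mouse 14. Cyclin A2 (Ccna2) ranged from 1080 to 1849 in NBC mice and from 737 to 1743 in placebo mice, and cyclin B2 (Ccnb2) from 430 to 973 in NBC mice and from 703 to 1077 in placebo mice. Their log2 differences were 0.12 (SE 0.28) and -0.28 (SE 0.26).

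Birc5, survivin, a subunit of the chromosomal passenger complex, read 1449, 1930, 1543 and 1892 in NBC mice, against 1909, 2071, 1187 and 2130 in placebo mice. Its 3 lowest readings were those of the same mice as for Cdk1, and its log2 difference was -0.07 (SE 0.20). Kif20a, a kinesin of the last steps of division, had the largest negative difference of the 37. It read 143, 300, 396 and 416 in NBC mice, against 493, 503.8, 376 and 420 in placebo mice. Placebo mouse 10 lay within the range of the NBC mice, and NBC mouse 5 was far below the rest. The means were 314 ± 125 in NBC mice and 448 ± 60.7 in placebo mice, with a log2 difference of -0.57 (SE 0.29, interval -1.22 to 0.09, limma adjusted p = 0.781). Without NBC mouse 5 the difference was -0.26. These signals lie close to the filter limit, where the readings are noisier.

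Cdc20, an activator of the ubiquitin ligase that ends mitosis, read 1779, 1322, 1778 and 2308 in NBC mice, against 1382, 1913, 1002 and 2024 in placebo mice. Placebo mouse 10 was the lowest and NBC mouse 13 the highest. Its log2 difference was 0.21 (SE 0.25), while its other probe set gave -0.24 (SE 0.18). Bub1, a kinase of the spindle checkpoint, read 356, 485, 286 and 391 in NBC mice, against 295, 357, 195 and 416 in placebo mice, with a log2 difference of 0.27 (SE 0.23). Here too placebo mouse 10 was the lowest, and without it the difference was 0.07 for Bub1 and 0.01 for Cdc20. Of the remaining mitosis genes, the largest differences were those of the mitotic kinases Plk1, -0.34 (SE 0.42), and Aurkb, -0.33 (SE 0.30), and of the transcription factor Foxm1, 0.17 (SE 0.29). Bub1b, Aurka, Cenpa, Kif11 and Tpx2 lay between -0.04 and 0.10 in the probe sets used. Other probe sets above the filter gave 0.09 for Aurkb, 0.32 (SE 0.66) for Bub1b, 0.22 for Kif11, and -0.47 and 0.01 for Tpx2. No mitosis gene had an unadjusted p under 0.05 or groups that did not overlap.

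**Figure D2:**
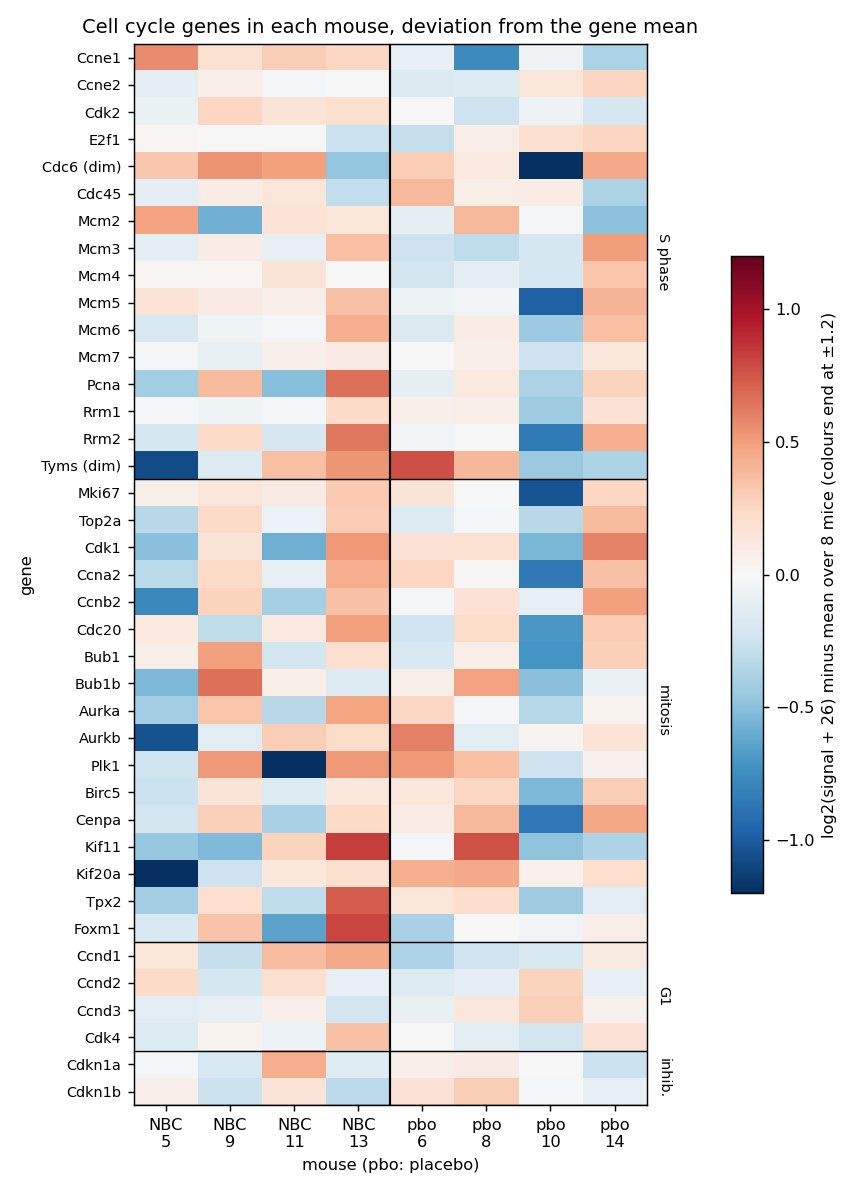
Deviation of each of the 39 genes (rows, grouped by role) from its own mean over the 8 mice, in log2 units, for NBC mice 5, 9, 11 and 13 on the left and placebo mice 6, 8, 10 and 14 on the right; the colours end at ±1.2, and dim marks the 2 genes under the filter. Among the mitosis rows, the columns of placebo mouse 10 and NBC mouse 5 are mostly low and the column of NBC mouse 13 is mostly high.

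A score was formed for each mouse as the mean over a list of log2(signal + 26) minus that gene's mean over the 8 mice. The S phase score, over 16 genes, was -0.05, 0.06, 0.06 and 0.18 in NBC mice 5, 9, 11 and 13, against 0.00, -0.01, -0.35 and 0.11 in placebo mice 6, 8, 10 and 14. The groups overlapped, with placebo mouse 10 the lowest and NBC mouse 13 the highest. The group means were 0.06 ± 0.09 in NBC mice and -0.06 ± 0.20 in placebo mice, a difference of 0.13 beside a pooled SD of 0.16. Without placebo mouse 10 the difference was 0.03, and without placebo mouse 14 it was 0.19. The 14 S phase genes that passed the filter had 11 differences above 0 and 3 below, with a median of 0.09.

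The mitosis score, over 17 genes, was -0.39, 0.16, -0.22 and 0.39 in NBC mice 5, 9, 11 and 13, against 0.11, 0.20, -0.45 and 0.20 in placebo mice 6, 8, 10 and 14. NBC mice lay at both ends: mouse 13 was the highest of all, and mice 5 and 11 were the lowest after placebo mouse 10. The group means were -0.01 ± 0.35 in NBC mice and 0.01 ± 0.31 in placebo mice, a difference of -0.03 beside a pooled SD of 0.33. The 8 mice spanned 0.84 on this score. The 17 genes had 10 differences above 0 and 7 below, with a median of 0.03. The sign of the difference turned with single mice: it was -0.18 without placebo mouse 10 and 0.10 without NBC mouse 5.

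Extreme readings were counted per mouse, a choice made after the values were seen. Placebo mouse 10 was the lowest of 8 in 8 of 17 mitosis genes (47.1%) and 5 of 14 S phase genes (35.7%), against 13.8% of all genes. NBC mouse 13 was the highest in 8 of 17 mitosis genes (47.1%) and 4 of 14 S phase genes (28.6%), against 16.7% of all genes. Placebo mouse 14 was the highest in 6 of 14 S phase genes (42.9%) and 5 of 17 mitosis genes, against 9.51% of all genes. NBC mouse 5 was the lowest in 5 of 17 mitosis genes (29.4%), against 16.4% of all genes, and in 0 of 14 S phase genes.

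The macrophage score had the same lowest 3 mice and the same highest mouse as the mitosis score. The score of the retinoblastoma and E2F genes, given below, shared these mice too. The macrophage score was -0.26, 0.22, -0.16 and 0.66 in NBC mice 5, 9, 11 and 13, against -0.08, 0.06, -0.55 and 0.10 in placebo mice 6, 8, 10 and 14. Placebo mouse 10 was the lowest, followed by NBC mice 5 and 11, and NBC mouse 13 was the highest. Cd68, a lysosomal protein of macrophages, read 10742, 16839, 11395 and 30777 in NBC mice, against 16944, 15821, 8705 and 15081 in placebo mice. Trem2, a receptor of lipid-associated macrophages, read 2688, 5336, 2751 and 10003 in NBC mice, against 3803, 5289, 2298 and 5164 in placebo mice. Both were lowest in NBC mice 5 and 11 and placebo mouse 10, as were 6 of the 12 macrophage genes (50%), against 5.23% of all genes. The complement genes C1qa and C1qb had another order: C1qa read 16699 in NBC mouse 5 and 16297 in NBC mouse 11, against 11961 to 14223 in placebo mice. C1qb read 31005 in NBC mouse 5 and 31884 in NBC mouse 11, against 18805 to 27048 in placebo mice. The part of macrophages in the mitosis readings was not tested.

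The lymphocyte score had another order: 0.90, 0.57, -1.05 and -1.58 in NBC mice 5, 9, 11 and 13, against 0.62, 0.18, 0.09 and 0.27 in placebo mice 6, 8, 10 and 14. Cd3d, a chain of the T cell receptor complex, read 25 in mouse 11 and 26 in mouse 13 of the NBC group, and 608 to 2247 in the other 6 mice. Cd3g, Cd79a, Cd79b, Ms4a1 and, less far, Cd8a also had their lowest readings in mice 11 and 13. Cd3e, Ighm and Bcl6 did not share this pattern. Ighm read 55497 in mouse 11 and 46986 in mouse 13, against 46998 to 60628 in placebo mice. Bcl6 read 3977 and 2701 there, against 2216 to 4003 in placebo mice. Cd4, under the filter, was highest in mouse 11. The NBC mice at the ends of the mitosis score, 5 and 13, thus lay at the opposite ends of the lymphocyte score. The muscle score was 2.71, -0.85, 2.83 and 2.70 in NBC mice 5, 9, 11 and 13, against -2.51, -1.53, -0.44 and -2.91 in placebo mice 6, 8, 10 and 14. It was alike in NBC mice 5 and 13. For the 3 mice with the lowest mitosis scores the Gapdh ratio was 1.47 (NBC mouse 5), 1.28 (NBC mouse 11) and 0.985 (placebo mouse 10), and for NBC mouse 13, the highest, it was 1.11. The endothelial score was -0.14, 0.29, 0.33 and -0.23 in NBC mice 5, 9, 11 and 13. In placebo mice 6, 8, 10 and 14 it was -0.36, -0.16, 0.28 and -0.02. The parts of lymphocytes, endothelial cells, muscle and RNA quality in the mitosis readings were not tested.

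**Figure D3:**
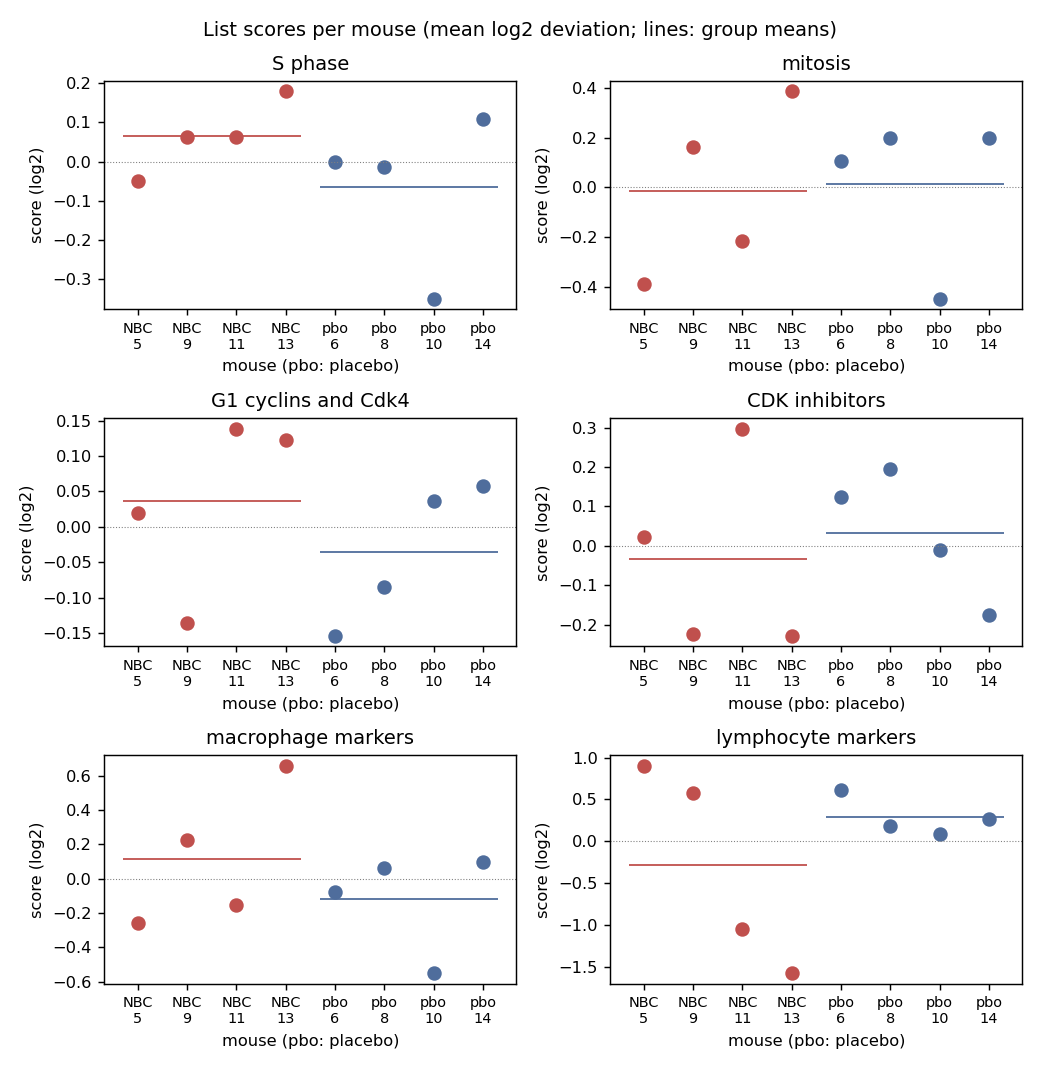
Score of each mouse (vertical axis, mean log2 deviation over the list) for S phase, mitosis, G1 cyclins with Cdk4, CDK inhibitors, macrophage markers and lymphocyte markers, NBC mice left of placebo mice, with a line at each group mean (n = 4 a group). The 2 groups overlap in all 6 panels, and placebo mouse 10 is the lowest point of the S phase, mitosis and macrophage panels.

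The D-type cyclins, which respond to growth signals, did not share the order of the mitosis genes. Cyclin D1 (Ccnd1) read 3838, 2863, 4504 and 4771 in NBC mice, against 2692, 2932, 3045 and 3751 in placebo mice. NBC mice 5, 11 and 13 lay above all placebo mice, and NBC mouse 9 lay below 3 of them. The means were 3994 ± 850 in NBC mice and 3105 ± 455 in placebo mice, a ratio of 1.29, with a log2 difference of 0.34 (SE 0.18, interval -0.07 to 0.76, limma adjusted p = 0.784). A dimmer probe set of the same gene read 1726, 1478, 1400 and 2206 in NBC mice, against 929, 1072, 1244 and 1391 in placebo mice. There the groups did not overlap, with means of 1702 ± 363 in NBC mice and 1159 ± 201 in placebo mice and a log2 difference of 0.54 (SE 0.18, unadjusted p = 0.0162, limma adjusted p = 0.73). The remaining Ccnd1 probe set gave 0.23 (SE 0.17), so the 3 probe sets had the same sign. In the first probe set the 3 NBC mice with high readings were the 3 with high muscle markers. In the other 2, NBC mouse 11, high in muscle markers, was the lowest NBC mouse, at 1400 and 2164, against 1478 and 2799 in NBC mouse 9, which was low in them. The part of muscle in these readings was not tested.

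Cyclin D2 (Ccnd2) read 26967, 19922, 26276 and 21543 in NBC mice, against 20529, 21330, 27780 and 21591 in placebo mice. NBC mice 5 and 11 and placebo mouse 10, the 3 mice with the lowest mitosis scores, had its 3 highest readings, and the other 5 mice lay between 19922 and 21591. The same 3 mice were the highest in 5 of the 7 Ccnd2 probe sets that passed the filter, against 5.2% of all genes, a count made after the values were seen. These 7 probe sets read 1 gene and are not separate observations. Between the groups the log2 difference of Ccnd2 was 0.05 (SE 0.15), and its 6 other probe sets gave -0.12 to 0.33. Cyclin D3 (Ccnd3) read 5564, 5685, 6362 and 5210 in NBC mice, against 5733, 6694, 7442 and 6293 in placebo mice. Of the NBC mice, 3 lay below all placebo mice, and the means were 5705 ± 482 in NBC mice and 6540 ± 718 in placebo mice. The log2 difference was -0.19 (SE 0.12, interval -0.48 to 0.09, limma adjusted p = 0.815). Cdk4, the kinase that D cyclins activate, read 2415, 2794, 2579 and 3468 in NBC mice, against 2712, 2484, 2320 and 3046 in placebo mice. NBC mouse 13 was the highest and placebo mouse 10 the lowest, with a log2 difference of 0.08 (SE 0.15, interval -0.25 to 0.42). This Cdk4 probe set has the suffix x described for Ccne1. The other Cdk4 probe sets above the filter gave -0.03 (SE 0.15) and -0.18 (SE 0.20). In the latter, placebo mouse 10 was the highest, at 2085. The score of the 4 genes was 0.02, -0.14, 0.14 and 0.12 in NBC mice and -0.15, -0.09, 0.04 and 0.06 in placebo mice, with means of 0.04 ± 0.13 in NBC mice and -0.04 ± 0.10 in placebo mice.

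The CDK inhibitors did not differ beyond their spread. Cdkn1a, p21, the inhibitor that p53 induces, read 16339, 14466, 22384 and 14982 in NBC mice, against 17392, 17717, 16570 and 13850 in placebo mice. Only NBC mouse 11 lay above 17717. The means were 17043 ± 3647 in NBC mice and 16382 ± 1756 in placebo mice, with a log2 difference of 0.04 (SE 0.16, interval -0.33 to 0.41). The other Cdkn1a probe set gave 0.37 (SE 0.30, interval -0.31 to 1.04), and there NBC mouse 13 was the highest, at 2348. Cdkn1b, p27, which restrains CDKs in resting cells, read 3249, 2602, 3477 and 2495 in NBC mice, against 3521, 3818, 3058 and 2912 in placebo mice. The groups overlapped, with means of 2956 ± 481 in NBC mice and 3327 ± 418 in placebo mice and a log2 difference of -0.18 (SE 0.15, interval -0.52 to 0.17). The score of the 2 inhibitors averaged -0.03 ± 0.25 in NBC mice and 0.03 ± 0.16 in placebo mice.

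**Figure D4:**
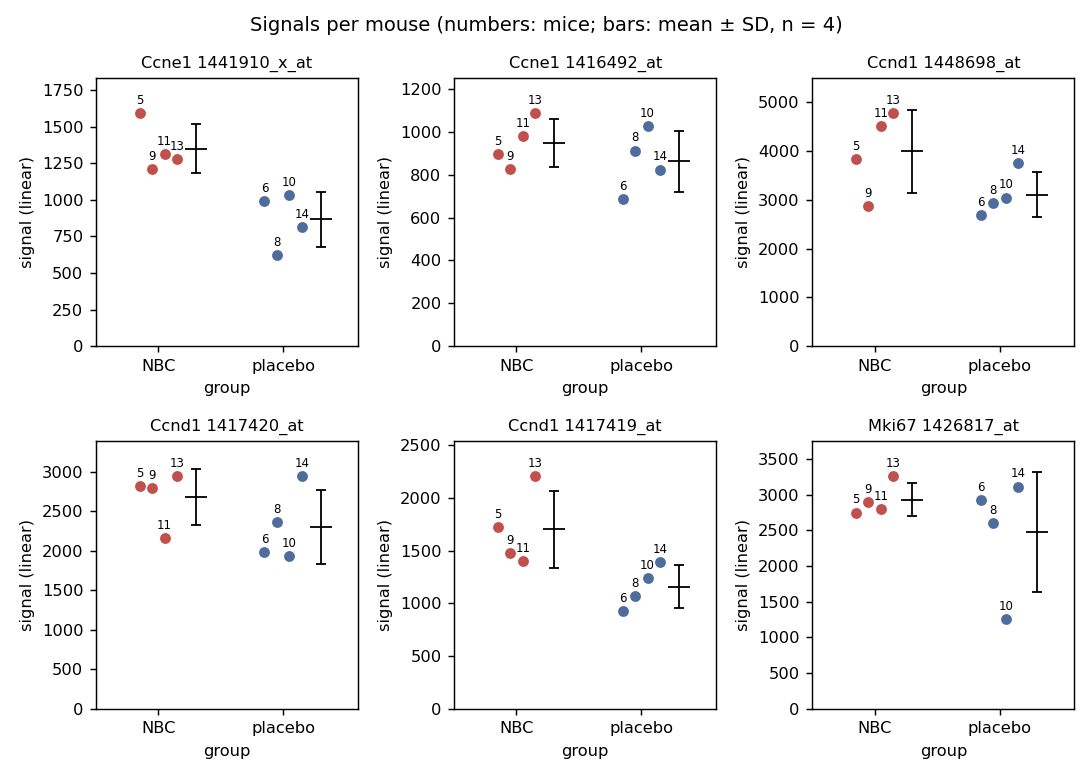
Signal (linear scale, vertical axis) in each mouse, with mean ± SD, for the 2 probe sets of Ccne1, the 3 of Ccnd1 and that of Mki67, NBC mice left of placebo mice (n = 4 a group). The groups are apart in the first probe set of Ccne1 and the third of Ccnd1 and overlap in the others; the low point of Mki67 is placebo mouse 10, at 1258.

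Other probe sets of the same genes gave a second reading. Of the 37 genes, 23 had other probe sets above the filter, 36 in all. Of these 36, 22 had the sign of the probe set used for the gene and 14 the opposite sign. At an unadjusted p under 0.05 there was 1 of 36, the dimmer one of Ccnd1, which lay higher in NBC mice, against 6.22% of all probe sets and 3.28% in that direction; it was also the 1 without overlap, against 3.85%.

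Wider lists of cell cycle genes were read in the same fit. Of 135 genes in 5 lists, 120 passed the filter, 0 had an adjusted p under 0.05, and 64 lay above 0 and 56 below, with a median log2 difference of 0.02. At an unadjusted p under 0.05, 2 lay higher and 2 lower in NBC mice, of 120, against 2.73% and 2.71% of all genes. The 39 replication factors outside the 40 genes were split evenly, 20 above and 19 below 0, with a median of 0.01. Timeless, which steadies the replication fork, read 774, 957, 877 and 524 in NBC mice, against 237, 514, 229 and 657 in placebo mice. Its groups overlapped, and its log2 difference was 0.996 (SE 0.35, limma adjusted p = 0.738). Rpa3, a subunit of the protein that coats single-stranded DNA, read 1611, 1685, 1689 and 1604 in NBC mice, against 1943, 2413, 2036 and 1871 in placebo mice. All NBC mice lay below all placebo mice, with a log2 difference of -0.32 (SE 0.12, limma adjusted p = 0.776). The same absence of overlap held for Orc4 and Orc6, subunits of the origin recognition complex, with log2 differences of -0.26 and -0.23. Orc6 averaged 3043 ± 294 in NBC mice and 3573 ± 52.8 in placebo mice. These 3 of 120 genes were the ones without overlap, against 3.93% of all genes.

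The 43 further mitosis genes had 28 differences above 0 and 15 below, with a median of 0.09, and none had an unadjusted p under 0.05. Cenpf, a kinetochore protein, had a log2 difference of 0.60 (SE 0.31), the kinesin Kif18a -0.40, the microtubule-associated Ckap2 0.34 and the kinetochore subunit Spc25 0.21. The score over all 50 genes of that list, 7 of them under the filter, was -0.12, 0.01, -0.02 and 0.18 in NBC mice 5, 9, 11 and 13, against 0.04, 0.02, -0.30 and 0.19 in placebo mice 6, 8, 10 and 14. Placebo mouse 10 was the lowest and NBC mouse 5 came next, while NBC mouse 11 lay close to NBC mouse 9 and placebo mouse 8. By summed signal NBC mouse 5, at 101295, lay above 5 of the other mice. NBC mice 5 and 11 and placebo mouse 10 held the 3 lowest readings in 9 of the 43 genes (20.9%), against 5.23% of all genes.

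The 20 retinoblastoma and E2F genes had 8 differences above 0 and 12 below. Their score was -0.15, 0.00, -0.16 and 0.21 in NBC mice 5, 9, 11 and 13. In placebo mice 6, 8, 10 and 14 it was 0.12, 0.09, -0.09 and -0.01. NBC mice 5 and 11 and placebo mouse 10 held the 3 lowest readings in 2 of the 20 genes (10%), against 5.23% of all genes. E2f5, a repressive E2F factor, read 1516, 2193, 1956 and 3992 in NBC mice, against 3057, 5691, 4637 and 2868 in placebo mice, with a log2 difference of -0.78 (SE 0.32, limma adjusted p = 0.778). NBC mice 5, 9 and 11 lay below all placebo mice, and NBC mouse 13 lay among them. Cdk6, the other partner of the D cyclins, read 2124, 2776, 2666 and 3541 in NBC mice, against 1844, 2493, 1754 and 2049 in placebo mice, with a log2 difference of 0.43 (SE 0.18, limma adjusted p = 0.778). All NBC mice lay above placebo mice 6, 10 and 14. E2f4 and its partner Tfdp2 had log2 differences of -0.32 and -0.29. Among other CDK inhibitors, Cdkn1c had a log2 difference of 0.04 and Cdkn2b, Cdkn2c and Cdkn2d lay between -0.18 and -0.08. Of 14 targets of p53, 7 lay above and 7 below 0; the 4 with the smallest p were the kinase Plk2, 0.29, Zmat3, 0.12, Aen, -0.19, and Sesn2, -0.20. None of these lists held a gene with an adjusted p under 0.05.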

How the data were processed

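RNA of subcutaneous fat was measured on 1 Affymetrix Mouse Genome 430 2.0 array per mouse, 4 NBC and 4 placebo, grouped by sample titles. The deposited values are signal intensities, not logged, 1 value for each probe set, which per the submitters' processing notes come from MAS5, with no version given. MAS5 subtracts mismatch probe signals, which leaves dim readings noisy. Every array had the same mean, 1500.01, after trimming 2% from both ends, so no further scaling was done.

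Of 45101 probe sets, 64 controls were left out. The platform annotation named 1 gene for 34945 probe sets, and only these were used for genes. Values were taken as log2(signal + 26), 26 being close to the 10th percentile of all signals, so differences of dim genes are understated. Probe sets at or above the median mean (a signal of 275) were kept: 22519, for 11662 genes. Groups were compared with limma 3.58.1 in R 4.3.3 (lmFit and eBayes, Benjamini-Hochberg over all probe sets kept, threshold 0.05) and, for single genes, an exact two-sided permutation test. Scores and lists are described without a test. The number of arrays limits the precision.

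The genes and lists were chosen with earlier results of these data known. Named with values in every mouse were the main markers, any gene with an unadjusted p under 0.05 or no overlap, and up to 3 brightest and 3 of smallest p in the S phase and mitosis lists; of each wider list, up to 4 of smallest p. Alternatives tried were the pseudocount, the filter, the normalization, the choice of probe set, the variance moderation, the scaling of scores and leaving out each mouse. Promoter sequences are RefSeq's, GRCm38.p6.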

Additional observations from a re-analysis of the deposited data

Results flagged for a closer look

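In groups of 4 mice, a reading was picked out where its gap to the nearest other mouse, divided by the group's range, was above Dixon's 95% critical value for 4 samples. Of 86 groups examined, 7 had such a reading, where chance alone gives about 5% of groups. Placebo mouse 10 accounted for 3 of the 7. Its mitosis score, -0.45, stood below those of the other placebo mice with a ratio of 0.855. Its Cdc6 signal, 47.8, stood below with a ratio of 0.848, in a gene under the filter. Its Ccnd2 signal, 27780, stood above with a ratio of 0.833. NBC mouse 13 accounted for 2: E2f1 at 1052 stood below the other NBC mice (0.89) and Rrm1 at 2052 above them (0.876). Placebo mouse 14 stood above the other placebo mice for Mcm3 at 1853 (0.876), and NBC mouse 11 stood above the other NBC mice for Mcm4 at 2053 (0.846).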

How the results depend on the processing

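None of the 37 cell cycle genes had an adjusted p under 0.05 under any of the alternatives run, and neither had any gene of the wider lists. No paired analysis was possible because no mouse number occurs in both groups. The number of the 37 with an unadjusted p under 0.05 was 1 as reported and 2 with quantile normalization (Ccne1 and Cdk2) and with the mean of all probe sets of a gene (Ccne1 and Ccnd1); leaving out 1 mouse at a time gave 1 to 2. It was 2 without NBC mouse 5 (adding Cdk2), NBC mouse 9 (adding Ccnd1), or NBC mouse 11 or 13 (adding Kif20a). With the filter at the 75th percentile it was 1, which was Cdk2, as Ccne1 lay below that filter. For the wider lists it was 4, and 3 to 7 with 1 mouse left out: 3 without NBC mouse 11, and 7 without NBC mouse 9 or placebo mouse 14. The genes behind this count changed with the processing. With the mean of all probe sets of a gene it was 3: Rpa3, Rfc2 and Incenp, without Timeless, E2f5 and Cdk6. With no filter it was also 3: Timeless, Kif15 and Cdc25c, without Rpa3, E2f5 and Cdk6. Leaving out 1 mouse gave score differences of 0.03 to 0.19 for S phase, -0.18 to 0.10 for mitosis, 0.03 to 0.13 for the G1 cyclins with Cdk4, and -0.18 to 0.00 for the inhibitors. The mitosis difference was also 0.06 with the filter at the 75th percentile, and that of the inhibitors 0.09 with the mean of all probe sets. That mean, which takes in dim probe sets, turned the sign for Cdk2 (-0.16), Mcm7 (-0.057), Cdc20 (-0.18), Bub1 (-0.27) and Cdk4 (-0.042). With 1 mouse left out, signs turned within these ranges: Mcm6 -0.052 to 0.21, Mcm7 -0.057 to 0.067, Pcna -0.16 to 0.23, Top2a -0.030 to 0.21, Birc5 -0.26 to 0.013, Ccnd2 -0.014 to 0.15, Cdk4 -0.019 to 0.16, and Cdkn1a -0.10 to 0.11. The causes were not tested. Of the 19 genes followed through the alternatives, 8 kept their sign in every one that gave a value: Ccne1 stayed at 0.39 to 0.74. Ccne1, Top2a, Bub1 and Kif20a lay below that stricter filter and have no value there. With 4 mice a group, differences such as the interval of -0.28 to 0.92 for Mki67 could not be told from 0.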
